A study of Mus musculus with 9 samples.

Results

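The subject here is what became of the binding sites of the glucocorticoid receptor (GR) when corticosterone (CORT) was washed out. A GR peak listed after CORT was counted as kept when a GR washout peak shared at least 1 bp with it, and as lost otherwise. Coding exons of Nr3c1, the gene of GR, and of Nr3c2, the gene of the mineralocorticoid receptor (MR), were left out. This left 10583 of 10602 GR CORT peaks and 228 of 246 GR washout peaks, out of 30508 peaks in the 6 lists of the series. Of the CORT peaks, 208 were kept (1.97%, 95% Wilson interval 1.72% to 2.25%) and 10375 were lost. With the washout summit required within 50 bp of the CORT summit, 133 were kept (1.26%, 1.06% to 1.49%).

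The cells were N2A, a mouse neuroblastoma line, transiently transfected with EGFP-tagged GR and mCherry-tagged MR. All groups carried both plasmids and were grown in charcoal-stripped serum, so every receptor measured here was overexpressed, alongside the cells' own GR. The methods of the study describe rat receptors and the sample labels name mouse ones. In the GR CORT group the cells received 100 nM CORT for 20 minutes. In the GR washout group they received the same 100 nM CORT for 20 minutes, were washed and stayed without CORT for another 40 minutes. The vehicle group received no CORT, and input chromatin was taken after each treatment. Binding was measured by ChIP-nexus, in which an exonuclease trims precipitated DNA up to the crosslinked protein. The authors combined 3 replicates per condition before calling peaks, which gives 1 list per condition and no error between replicates. Each test therefore counts single peaks and compares libraries, and neighbouring peaks are not independent of each other. Peak lists hold no marker genes and no read counts, so the identity of the cells could not be checked from them. The study gives mapped reads as a range over treatments and not for each library, and no depth enters the values here.

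GR is a steroid receptor that waits in the cytoplasm with chaperones, moves into the nucleus when it binds hormone, and attaches to DNA at glucocorticoid response elements (GREs). MR binds the same hormone more tightly and recognises the same elements. A GRE is a pair of inverted half-sites, AGAACA and TGTTCT, held apart by a spacer of 3 bases.

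The closest match to a GRE near the summit is printed for 6 kept peaks and 5 lost ones. They were picked from peaks that recur in the results and whose match has at most 3 mismatches. Capitals mark the 15 bases of the match and lower case its flanks, read 5′ to 3′ on the plus strand of GRCm38 (RefSeq). Each line gives the position of the capitals and the mismatches in the 12 fixed bases.
Kept, Gm20388, 2 mismatches, chr8:123786468-123786482: cccagcAGGACAGAACGTTCTctgttg
Kept, Nfkbia, 3 mismatches, chr12:55492022-55492036: ccgcccGGAACGCCCTGTACTtcccct
Kept, Ddc, 3 mismatches, chr11:11844623-11844637: ttggccAGGACATTCAGTCCTtggcct
Kept, Tns2, 2 mismatches, chr15:102102649-102102663: tggccgGGGACACAGTGTTCTccactg
Kept, Cdkn1a, 3 mismatches, chr17:29094699-29094713: ttggcgGGCACAGTATGTTCCcaggga
Kept, Ddit4, 0 mismatches, chr10:59974273-59974287: agagccAGAACACAATGTTCTcagctc
Lost, Col4a2, 3 mismatches, chr8:11382189-11382203: aagtccTGAACATCTTGTAATtgaatt
Lost, Fkbp5 (strongest peak), 3 mismatches, chr17:28512893-28512907: tttgctGGAACACAAGGTACTgcaccg
Lost, Fkbp5 (distal intron), 0 mismatches, chr17:28420321-28420335: gagcacAGAACACCCTGTTCTgaatgt
Lost, Per1 (4190 bp into the gene), 1 mismatch, chr11:69099416-69099430: caggctGGAACATCCTGTTCTcagcgc
Lost, Per1 (1862 bp into the gene), 1 mismatch, chr11:69097076-69097090: gccaagAGAACACGATGTTCCctagtg
Both groups include matches with 0 and with 3 mismatches. The kept match with 0 mismatches, at Ddit4, belongs to a peak that overlapped a peak of the vehicle lists. Other strong peaks had more and are not printed, such as the kept ones at Srp9 (4) and Flrt1 (5). The same was true of the lost ones in 9330198N18Rik (5) and Extl1 (4). How often a GRE occurred in all kept and lost peaks is given further on.

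The strength of a peak is given as −log10 p, the significance of the peak over input. It changes with library depth, so it ranks peaks within a list and is not an amount of binding that can be compared between CORT and washout. A vehicle site is a CORT peak that overlapped a GR or MR peak of the vehicle lists, that is, of cells without CORT. The feature comparisons use the 10550 CORT peaks on chromosomes 1 to 19, X and Y, of which 195 were kept (1.85%). Without vehicle sites 160 of 10508 were kept (1.52%).

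The strongest GR CORT peak lay in Gm20388 on chromosome 8, 19564 bp from the nearest protein-coding transcription start site (TSS), that of Rab4a, a small GTPase of endosome recycling. Its −log10 p was 70.8 after CORT and 17.3 after washout. The next lay in an intron of Nfkbia, which encodes an inhibitor of NF-κB, 678 bp from the TSS, with 55.7 after CORT and 14.2 after washout. An intronic peak of Ddc, the decarboxylase that makes dopamine and serotonin, had 46.0 after CORT and 12.1 after washout. None of the 3 overlapped a vehicle peak. Further kept peaks among the 12 strongest, counted without vehicle sites, lay at Macrod1 and Flrt1 (44.2 after CORT), and in Wnt3 (38.9), Agfg2 (37.0) and Lrig1 (35.2). Another (47.2) lay 34589 bp from the TSS of Srp9, which encodes a part of the signal recognition particle. Kctd17, Pmm1 and Tns2 had kept peaks at 25, 520 and 283 bp from the TSS, and Ier2, an immediate early gene, had one at 2778 bp. Over these 12 peaks −log10 p ran from 31.8 to 70.8 after CORT and from 7.44 to 17.9 after washout. The order after washout was a different one, with the Lrig1 peak at the top (17.9) and the Pmm1 peak at the bottom (7.44).

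The 8 strongest lost peaks had −log10 p between 36.4 and 50.4, which is within the range of the 12 strongest kept ones. The strongest lay in Col4a2, a collagen of the basement membrane, with 50.4. Others lay in 9330198N18Rik on chromosome 2 (42.4), in Extl1 (38.8), in Gm20388 (38.7), near Gpat2 (38.2) and in Fkbp5 (37.0). One (37.0) lay within 5 kb of Gm24471, and 179699 bp from the nearest protein-coding TSS, that of Map1b. The last (36.4) lay 46553 bp from the nearest protein-coding TSS, that of Gm10320. MR peaks were listed after CORT and after washout at all 12 of these kept sites and at all 8 of the lost ones. At Col4a2 the MR −log10 p was 54.4 after CORT and 56.6 after washout, and at Fkbp5 it was 49.7 and 43.6. MR was thus still listed at each of the strongest sites that GR had lost.

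Peaks that were stronger after CORT were kept more often. Split into 5 bands of −log10 p, with vehicle sites left out, the kept share was 0.236% in the weakest band (5 of 2115), 0.381% in the next (8 of 2100), 0.423% in the middle band (12 of 2839), 0.877% in the fourth (12 of 1368) and 5.90% in the strongest (123 of 2086). The intervals of the 4 lower bands overlapped each other, and the strongest band lay apart at 4.96% to 6.99%. Among the 10 strongest peaks 7 were kept (70.0%, 39.7% to 89.2%). Among the 25 strongest 11 were kept, among the 100 strongest 24, among the 500 strongest 69 (13.8%) and among the 1000 strongest 94 (9.40%). Most of the 100 strongest CORT peaks were therefore no longer listed. The median −log10 p after CORT was 17.3 for kept and 8.66 for lost peaks. Because of this dependence, kept and lost peaks were compared within 17 narrower bands, by an exact conditional test of a common odds ratio (two-sided, adjusted over 15 features by Benjamini and Hochberg, threshold 0.05). The strongest of these bands still ran from 18.7 to 70.8, so strength was not fully matched within it.

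**Figure D1:**
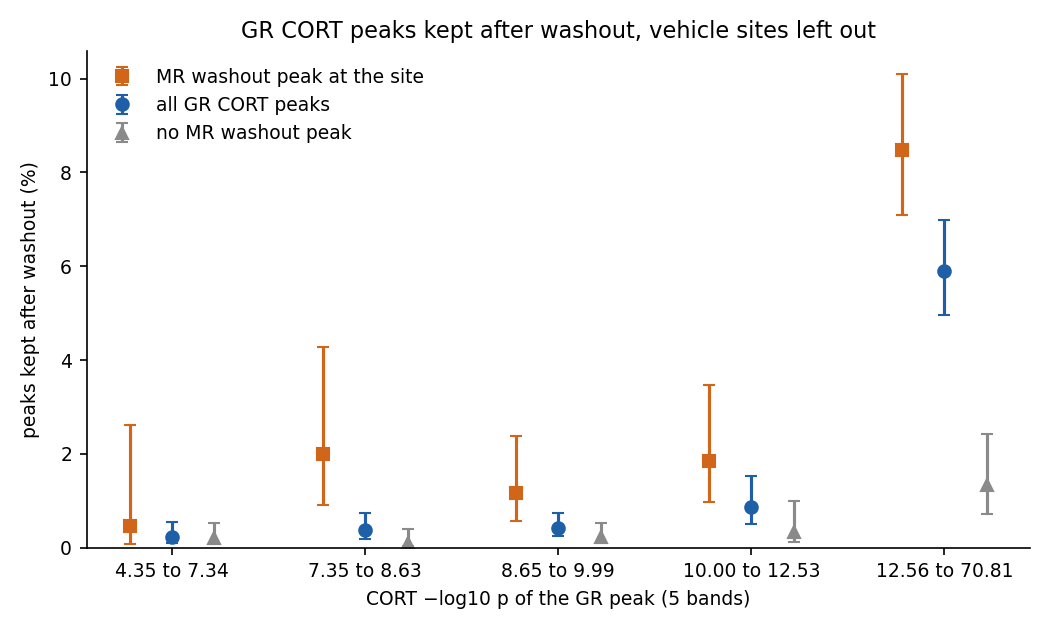
Share of GR CORT peaks kept after washout (%, y axis) in 5 bands of CORT −log10 p (x axis), vehicle sites left out, with 95% Wilson intervals, for all peaks and for those with and without an MR washout peak. The share for all peaks rose from 0.236% to 5.90%, and in the strongest band it was 8.47% with an MR washout peak and 1.33% without.

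The kept peaks fell into those at vehicle sites and those without. Of the 42 CORT peaks at vehicle sites on the chromosomes, 35 were kept (83.3%, 69.4% to 91.7%), and of the 34 at GR vehicle sites 32 were kept (94.1%, exact adjusted p = 9.10e-43). These 35 made up 17.9% of the kept peaks. In 26 of the 35 (74.3%) the summit lay in a masked repeat. In 26 (74.3%) a border pair of the CORT or washout input, a stretch of DNA that was delimited without precipitation, overlapped the peak. Among the 160 other kept peaks the counts were 9 (5.62%) and 3 (1.88%), and among the 10348 other lost peaks 671 (6.48%) and 16 (0.155%). The difference in input border pairs between the last 2 groups passed the test (exact adjusted p = 0.0186) on 3 kept peaks. Most kept vehicle sites sat together at 3 places. There were 9 at Gm10800 and Gm10801 on chromosome 2 (98662322 to 98667161), 8 at Gm21738 on chromosome 14 (19416114 to 19419512) and 5 on chromosome 9 (3000043 to 3030276). The median GC content of the 35 kept vehicle sites was 34.8%, against 54.2% for the other kept peaks and 51.2% for the lost ones. Kept peaks at 98665102 to 98665190 on chromosome 2 and at 3004467 to 3004590 on chromosome 9 also lay within the places named above. They overlapped no vehicle peak and count among the other 160. Of the 33 CORT peaks on unplaced contigs 13 were kept (39.4%), and 14 of the 33 were vehicle sites.

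The kept peaks at vehicle sites and the others also differed in their values in the CORT and washout lists. At vehicle sites the median −log10 p was 15.4 after CORT and 15.3 after washout, and the washout value was the higher one in 18 of 35. At the other 160 kept peaks the medians were 17.3 and 9.79, and the washout value was the higher one in 23. Each value is a significance within its own list, so a higher one does not mean more binding. A washout value is the highest among the washout peaks that overlap the CORT peak. Over all contigs, 4 washout peaks were shared by 2 or more kept CORT peaks, so some values are counted repeatedly. The washout summit lay within 20 bp of the CORT summit in 21 of the 35 vehicle sites and in 52 of the 160 others, and the median distance between the summits was 10 bp and 40 bp. One of the kept vehicle sites held the GRE without mismatch that is printed above. It lay 22405 bp from the TSS of Ddit4, which encodes an inhibitor of mTORC1. Its summit was in no masked repeat and it had no input border pair, which was also true of the site nearest to Chl1 on chromosome 6. At the Ddit4 site the GR −log10 p was 23.4 after CORT and 7.77 after washout, and the MR −log10 p was 27.9 and 45.4. Both sites were chosen for description after their values were seen.

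**Figure D2:**
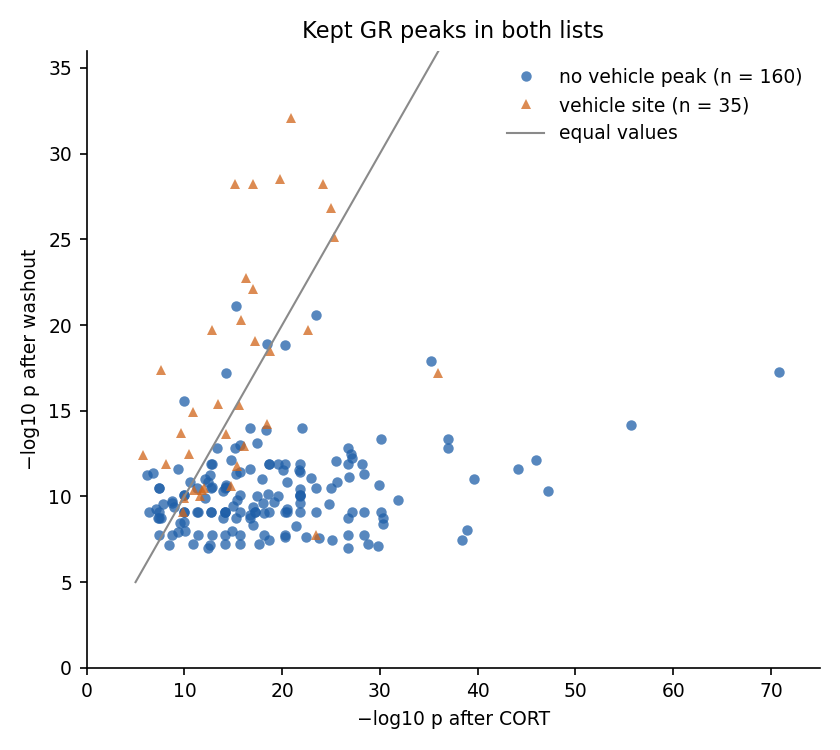
−log10 p after CORT (x axis) against −log10 p after washout (y axis) for the 195 kept GR peaks on chromosomes, with a line at equal values. The 35 vehicle sites lie around the line with medians of 15.4 and 15.3, and most of the other 160 lie below it with medians of 17.3 and 9.79. The values depend on the depth of each library, so the line does not mark equal binding.

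Kept peaks lay near TSSs more often than lost ones, but with vehicle sites left out this did not pass the test. A summit within 1 kb of a protein-coding TSS was found in 38 of 195 kept peaks (19.5%) and 1034 of 10355 lost ones (9.99%), an odds ratio of 2.24 within bands (95% interval 1.49 to 3.31, exact adjusted p = 2.43e-04). Of these 38 peaks, 15 were vehicle sites. Without vehicle sites the shares were 14.4% (23 of 160) and 9.96%, and the odds ratio of 1.52 (0.913 to 2.45, exact adjusted p = 0.122) did not pass the test. The same held within 5 kb, with 1.69 (exact adjusted p = 0.00272) for all peaks and 1.18 (0.796 to 1.71, exact adjusted p = 0.543) without vehicle sites. Peaks within annotated genes were 71.2% of the kept and 65.2% of the lost ones without vehicle sites (odds ratio 1.44, exact adjusted p = 0.0856). More than 5 kb from every gene lay 20.6% and 21.8% (0.921, 0.599 to 1.38, exact adjusted p = 0.893). The median distance to a TSS was 18402 bp for kept and 21456 bp for lost peaks. Fewer kept than lost peaks lay over 50 kb from a TSS, 15.6% (25 of 160) against 29.2%, and more lay at 5 to 50 kb, 57.5% against 47.1%. This last split by distance was not tested within bands. Summits in exons made up 7.50% of the kept and 8.97% of the lost peaks.

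**Figure D3:**
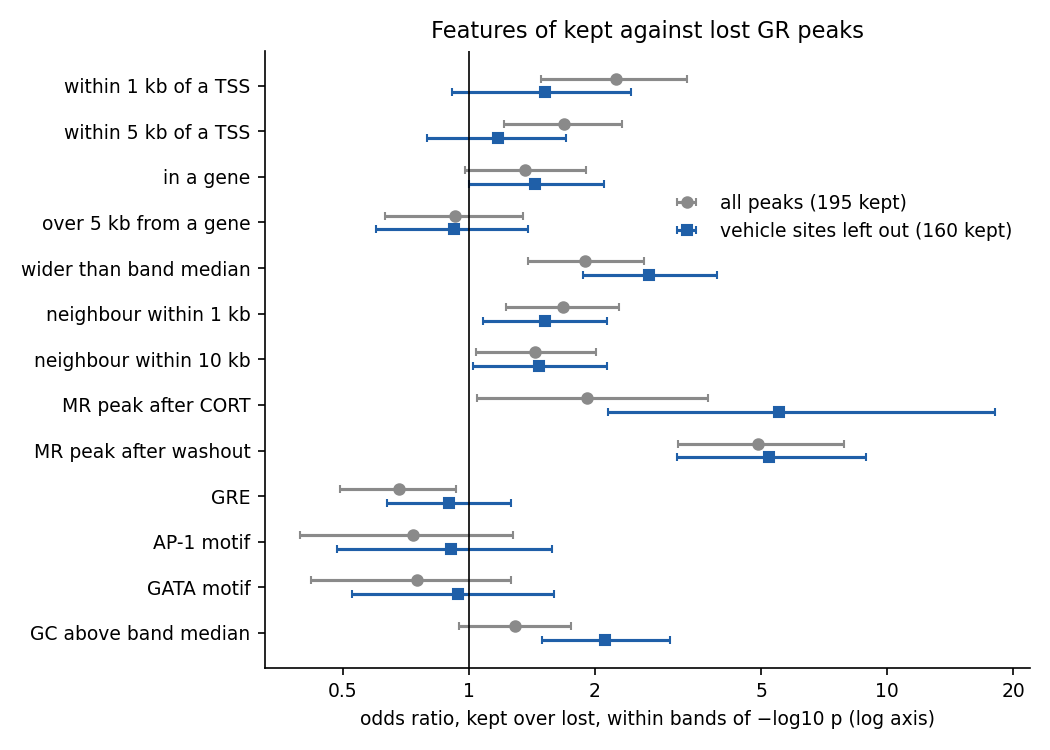
Odds ratios of 13 features in kept over lost GR peaks within bands of CORT −log10 p (log x axis), with 95% intervals, for all 195 kept peaks and for the 160 without vehicle sites. Without vehicle sites, width, a neighbour within 1 kb, MR peaks and GC content lie above 1 and passed the test. A TSS within 1 kb falls from 2.24 to 1.52.

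Kept peaks were wider than lost ones. Without vehicle sites the median width was 253 bp for kept and 120 bp for lost peaks, and in the strongest band, where both are wide, it was 267 bp (quartiles 214 and 364 bp) against 193 bp (140 and 268 bp). In the weakest band the medians were 124 and 99 bp. The kept peaks of the strongest band were also the stronger ones, with a median −log10 p of 20.3 against 15.0, so the test used the narrower bands. A width above the median of its band was found in 71.2% of kept and 49.2% of lost peaks, an odds ratio of 2.69 (1.87 to 3.92, exact adjusted p = 6.93e-08), and for all peaks the odds ratio was 1.90 (1.39 to 2.62, exact adjusted p = 1.31e-04). With 40 bands and vehicle sites left out the odds ratio was 2.31 (exact adjusted p = 9.39e-06). A wide peak has more bases that a washout peak can share, and this bears on the rule of 1 bp. When the washout summit had to lie within 50 bp of the CORT summit, the odds ratio for all peaks was 1.43 (0.976 to 2.12, exact adjusted p = 0.105) and did not pass the test. With vehicle sites left out as well it was 2.00 (1.28 to 3.18, exact adjusted p = 0.00553). With vehicle sites included and both lists cut at a −log10 q of at least 5, which left 91 kept peaks, it was 1.37 (exact adjusted p = 0.242). That threshold was not tried without vehicle sites.

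**Figure D4:**
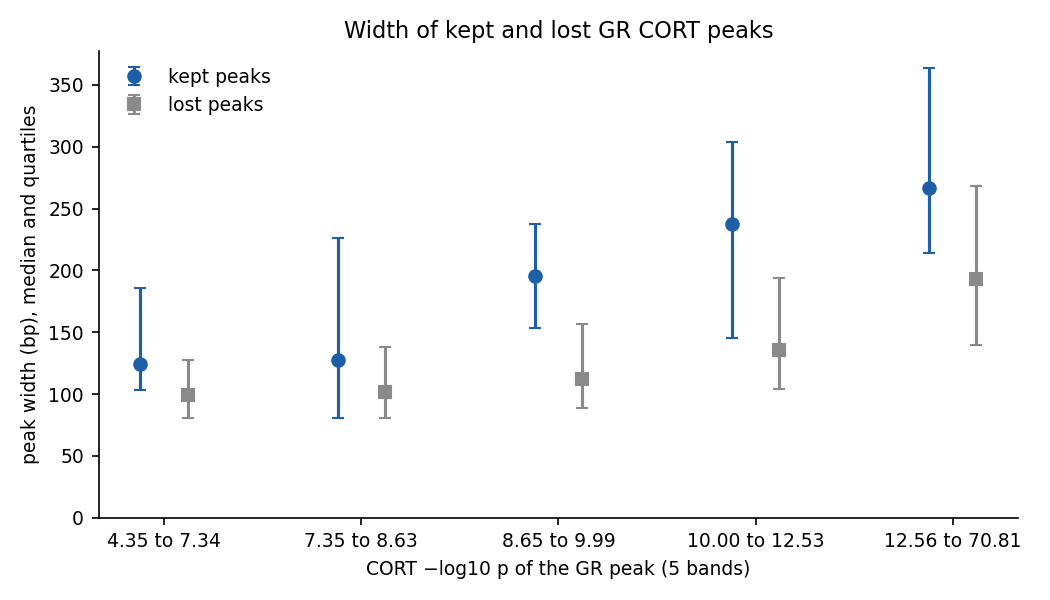
Width of GR CORT peaks (bp, y axis) in 5 bands of CORT −log10 p (x axis), as medians with quartiles, vehicle sites left out. Kept peaks had the higher median in each band, from 124 against 99 bp in the weakest to 267 against 193 bp in the strongest.

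Kept peaks more often had another GR CORT peak close by. A neighbour within 1 kb was present for 44.4% of kept (71 of 160) and 27.9% of lost peaks without vehicle sites (odds ratio 1.52, 1.08 to 2.14, exact adjusted p = 0.0343). Within 10 kb the shares were 70.0% and 52.3% (1.48, exact adjusted p = 0.0642). The median gap to the nearest peak was 1726 bp for kept and 8299 bp for lost peaks. The neighbours were usually lost. Peaks less than 10 kb apart formed 2000 runs of at least 2 peaks, of which 105 held a kept peak. None of the 105 had all its peaks kept, and the largest number of kept peaks in a run was 2. These runs held 408 CORT peaks, 111 kept and 297 lost, and the strongest peak of the run was among the kept in 73 of them. Of the 4985 peaks that were alone in their run once vehicle sites were left out, 49 were kept. With only the strongest peak of each run in the comparison, the odds ratio for a neighbour within 1 kb fell to 1.36 without vehicle sites (exact adjusted p = 0.321). Leaving out chromosome 8 as well as the vehicle sites gave 1.40 (exact adjusted p = 0.207).

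Kept GR peaks more often had MR at the same site after washout, and, less firmly, after CORT. Without vehicle sites, 136 of 160 kept peaks (85.0%) and 2798 of 10348 lost ones (27.0%) overlapped an MR washout peak, an odds ratio of 5.21 within bands (3.15 to 8.90, exact adjusted p = 4.65e-12). Put the other way, 4.64% of GR CORT peaks with an MR washout peak were kept (136 of 2934) and 0.317% of those without (24 of 7574). In the strongest band the shares were 8.47% (113 of 1334, 7.09% to 10.1%) and 1.33% (10 of 752, 0.724% to 2.43%). An MR peak after CORT was present at 155 of 160 kept peaks (96.9%) and 60.3% of lost ones (odds ratio 5.51, 2.15 to 18.1, exact adjusted p = 8.86e-05). Only 5 of 4109 GR CORT peaks without an MR CORT peak were kept (0.122%, 0.0520% to 0.285%). Most of these were weaker peaks. In the strongest band the share was 1.44% without an MR CORT peak (2 of 139, 0.40% to 5.09%) and 6.2% with one (121 of 1947). With vehicle sites included the odds ratio for MR after CORT was 1.92 (exact adjusted p = 0.0411), and among peaks with a −log10 q of at least 5 it turned to 0.706 (exact adjusted p = 0.517). It was 2.79 (exact adjusted p = 0.0942) without vehicle sites when the washout summit had to lie within 50 bp of the CORT summit. Where MR was listed after washout, its median −log10 p was 17.0 at kept and 10.4 at lost GR peaks. Most sites with an MR washout peak were lost all the same, 2798 of 2934.

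With vehicle sites left out, GC content passed the test and motifs did not, while with all peaks a GRE passed it and GC content did not. Within 100 bp of the summit, GC content above the band's median was found in 65.6% of kept and 48.5% of lost peaks without vehicle sites (odds ratio 2.12, 1.49 to 3.02, exact adjusted p = 5.36e-05). With vehicle sites included the odds ratio was 1.29 (exact adjusted p = 0.125), and among peaks with a −log10 q of at least 5 it was 0.863 (exact adjusted p = 0.518). A GRE with at most 3 mismatches lay within 100 bp of the summit in 43.1% of kept (69 of 160) and 37.8% of lost peaks, against 14.6% of windows of the same length 1000 bp away. Within bands the odds ratio was 0.899 (0.638 to 1.26, exact adjusted p = 0.715). With vehicle sites, of which 2 of 35 held a GRE, it was 0.680 (0.493 to 0.933, exact adjusted p = 0.0287). The AP-1 motif (TGACTCA or TGAGTCA, both strands) was found in 9.38% of kept and 8.77% of lost peaks and 3.92% of the distant windows. The GATA motif (AGATAA, both strands) was found in 10.6%, 11.5% and 10.4%. Neither passed the test (exact adjusted p = 0.897 for both), with intervals of the odds ratio from 0.483 to 1.58 and from 0.525 to 1.60. A match of letters is not a measured site.

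GR washout border pairs were called by MACE from the same library as the washout peaks. Those peaks define which CORT peaks were kept, so the pairs are no independent readout. A GR washout border pair overlapped 24 of the 35 kept vehicle sites, 6 of the other 160 kept peaks (3.75%) and 9 of the 10348 lost ones (0.0870%). For GR vehicle border pairs, from cells without CORT, the counts were 25, 2 (1.25%) and 7 (0.0677%). GR CORT border pairs were not used here, since the list at hand is much shorter than the one the study describes.

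Counted by gene, 174 of 5714 genes with a GR CORT peak inside or within 5 kb had a kept one (3.05%), and 162 of 5700 without vehicle sites (2.84%). A peak counts for every gene it lies in or within 5 kb of, so the genes are not separate sites. Of the 160 kept peaks, 33 lay over 5 kb from every gene. In 131 of the 162 other peaks of the gene were lost, and in the remaining 31 the kept peak was the only one. Of those 131 genes, 95 had their strongest peak kept. Genes with 5 or more CORT peaks had a kept one in 49 of 373 cases, and genes with 1 peak in 31 of 3570. Genes with at least 2 kept peaks were Gm20388 (19 of 257 CORT peaks), Gse1 (10 of 78), A330074K22Rik (2 of 10) and Mfhas1 (2 of 9). The first 3 overlap on chromosome 8 and share peaks. In Mfhas1 the kept peaks had −log10 p of 28.4 and 8.76 after CORT and 11.3 and 9.59 after washout, while a peak of 15.3 between the strengths of these was lost.

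Among 25 glucocorticoid-induced regulators, 12 had a GR CORT peak and 2 of them, Nfkbia and Cdkn1a, had a kept one, against 2.84% of all genes with a CORT peak. The list's median of the strongest CORT −log10 p per gene was 13.6, against 9.99 over all such genes. Cdkn1a encodes the cell-cycle inhibitor p21. Its intronic peak 3762 bp into the gene had 28.4 after CORT and 9.10 after washout, and a weaker exonic peak 3429 bp into the gene (6.15) was lost. Fkbp5, a co-chaperone that lowers the hormone binding of GR, lost all 12 of its GR CORT peaks, with −log10 p from 6.41 to 37.0. An MR washout peak overlapped 6 of these 12, with MR −log10 p from 10.4 to 43.6. Per1, a clock gene induced by glucocorticoids, lost both of its peaks (17.8 and 15.7). At Ddit4 the peak 642 bp before the gene (20.3) and one 1308 bp before it (7.38) were lost. Nearest to the TSS of Ddit4 but outside the window of 5 kb, and named here after their values were seen, a peak at 18089 bp was kept with 30.1 after CORT and 9.10 after washout, and one at 30495 bp with 30.3 and 8.73.

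The other lists held few kept peaks. Of 12 AP-1 factor genes 7 had a CORT peak, and Atf3, a stress-induced member of the family, had a kept one with 14.3 after CORT and 10.7 after washout. Its summit lay 34568 bp into the gene and 131 bp from the nearest TSS. Among 18 circadian clock genes 9 had CORT peaks, and 0 of their 14 peaks were kept, which allows a share of up to 21.4%. For 19 chaperones and co-chaperones, 3 with peaks, it was likewise 0 of 14, of which 12 were those of Fkbp5. For 12 sympathetic neuroblast transcription factors, 5 with peaks, it was 0 of 6. Beside a kept share of 1.52% over all peaks, a count of 0 among so few peaks says little about these lists. Of the 5 genes that the study followed, Ddc kept 1 of 5 GR peaks. Its lost peaks had 18.1, 11.4, 9.99 and 6.15 after CORT, all below the kept one at 46.0. Syt2, a calcium sensor of synaptic vesicles, lost its peaks of 23.4 and 7.38. Dusp4, a phosphatase of MAP kinases, lost its peaks of 26.7 and 4.49, and Sgk1, a kinase of sodium transport, lost its peaks of 8.66 and 6.00.

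**Figure D5:**
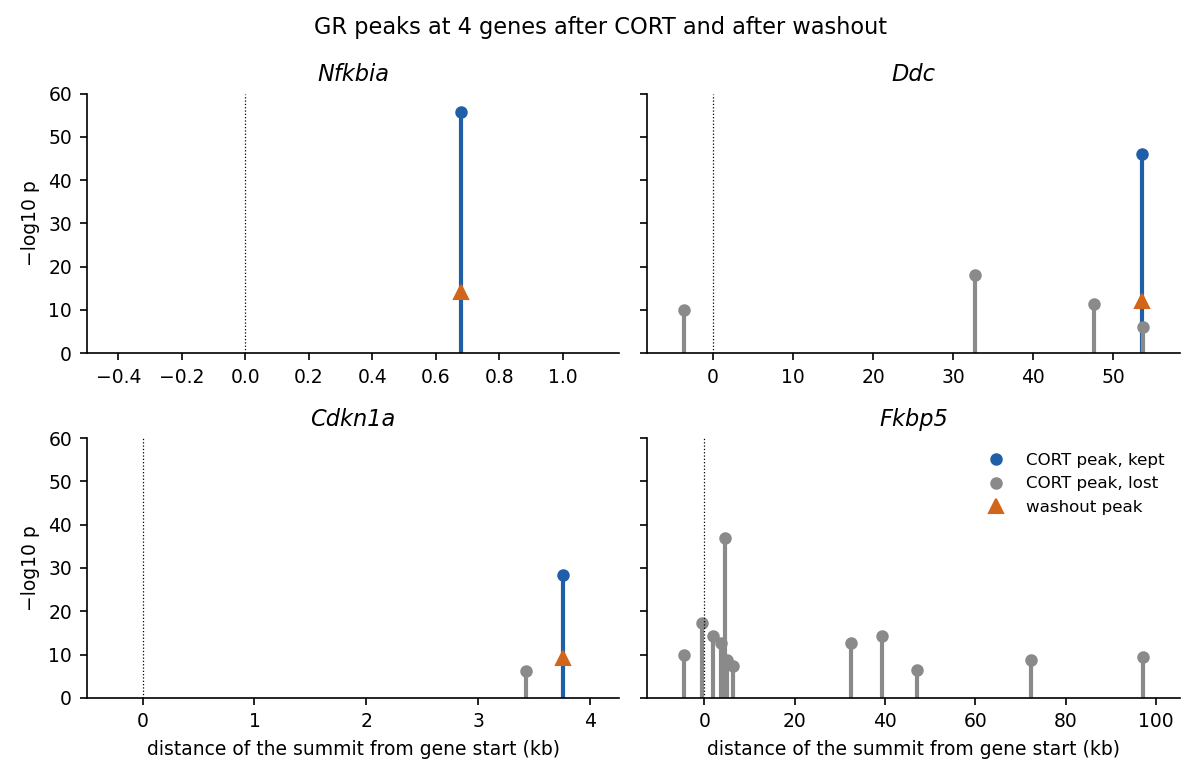
−log10 p of GR CORT peaks (y axis, points on stems) by distance of the summit from the gene start (kb, x axis) at Nfkbia, Ddc, Cdkn1a and Fkbp5, with washout peaks as triangles. The strongest peak was kept at Nfkbia (55.7), Ddc (46.0) and Cdkn1a (28.4), and all 12 peaks were lost at Fkbp5, the strongest at 37.0.

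A larger share of peaks was kept on chromosome 8 than elsewhere, which was not tested within bands. Without vehicle sites 41 of 1218 were kept there (3.37%, 2.49% to 4.54%) and 119 of 9290 elsewhere (1.28%, 1.07% to 1.53%). Within Gm20388 (119910841 to 124345722), an annotated gene of 4.43 Mb that spans several others, 19 of 257 were kept (7.39%), against 1.38% at all other positions. Among the peaks of the strongest of the narrow bands it was 13 of 35 against 53 of 413. Input border pairs were dense in the same place, with 17.8 per Mb in the CORT input and 14.0 in the washout input, against 1.89 and 1.81 elsewhere. Their part in the kept peaks there was not tested. Without chromosome 8 and vehicle sites, kept peaks still passed the test for width (odds ratio 2.35, exact adjusted p = 1.18e-04), MR washout peaks (5.29, exact adjusted p = 2.50e-09) and GC content (1.95, exact adjusted p = 0.00213).

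How many peaks counted as kept depended on the rule. When the washout summit had to lie within 50 bp of the CORT summit, 133 peaks were kept in place of 208. By the rule of 1 bp, the overlap covered a median of 100% of the shorter peak, and was at least 11.3%. In 9 of the 195 kept peaks it was under 50% of the shorter peak. Of the lost peaks, 109 had a washout peak within 1 kb without touching it. Of the 228 washout peaks 203 (89.0%) overlapped a CORT peak. The 25 that did not had a median −log10 p of 9.10 and at most 15.3. Of the 25, 21 lay on chromosomes 1 to 19, X or Y, and 10 overlapped an MR CORT peak, 5 an MR washout peak and 3 a GR vehicle peak.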

How the data were processed

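GR ChIP-nexus reads were trimmed, aligned to GRCm38 with Bowtie2, cleared of PCR duplicates by barcode and filtered by mapping quality, and peaks were called with MACS2 2.1.1.20160309 on 3 combined replicates against input (false discovery rate 0.05), all by the authors. The deposited −log10 values are those of p and q for each peak, where −log10 q stands in a column titled fold enrichment. The deposited score is derived from −log10 q and was not used. Border pairs were called by the authors with MACE, with a deposited p-value that was not used.

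Positions were read as 0-based starts and are printed 1-based. Genes were those of GENCODE M21, with 55450 genes on the chromosomes used, and sequence came from RefSeq GRCm38. The 33 CORT peaks on unplaced contigs were left out of feature comparisons. Features were compared by the exact conditional test of R 4.3.3 within 17 bands of −log10 p (20 requested, fewer after ties), two-sided, adjusted over 15 features with a threshold of 0.05. The test was tested on simulated data with known odds ratios. Runs join peaks under 10 kb apart. Intervals are 95% Wilson intervals, or exact ones for odds ratios, and cover counting error only. The limit for a count of 0 is 3 counts. Alternatives changed the bands, overlap, threshold, gene set, motif, vehicle sites, input regions, chromosome 8 and runs. Named genes are those at the 12 strongest kept and 8 strongest lost peaks outside vehicle sites, genes with at least 2 kept peaks outside vehicle sites, list members with a kept peak and Fkbp5, Syt2, Ddc, Sgk1 and Dusp4. Further genes are given as examples of their lists. Members and lists were chosen with earlier results of these data known. Python 3.11.15, pandas 2.3.3, scipy 1.17.1 and pysam 0.24.0 were used.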

Additional observations from a re-analysis of the deposited data

How the results depend on the processing

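MR after washout and the GR vehicle sites kept their direction and their side of the threshold under every alternative that gave a value for them. Values are odds ratios, kept over lost. With TSSs of all transcripts a TSS within 5 kb (1.28) no longer passed the test, and with protein-coding genes alone lying in a gene (1.41) passed it. A GRE with at most 2 mismatches (0.947) did not pass, and a GATA motif within 200 bp (0.513) did. With 5 bands a GRE (0.744) no longer passed and high GC (1.39) passed. With 40 bands a neighbour within 10 kb (1.42) and MR after CORT (1.88) no longer passed. With the washout summit within 50 bp, width (1.43), a neighbour within 10 kb (1.49), MR after CORT (1.32) and a GRE (0.669) no longer passed. With an overlap of at least 50% of the shorter peak, a neighbour within 10 kb (1.35) and MR after CORT (1.73) no longer passed. With a −log10 q of at least 5, width (1.37), a neighbour within 1 kb (1.66) and within 10 kb (1.36) no longer passed, and MR after CORT (0.706) and high GC (0.863) changed direction. The causes were not tested.

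Without vehicle sites a TSS within 1 kb (1.52) and 5 kb (1.18), a neighbour within 10 kb (1.48) and a GRE (0.899) no longer passed and high GC (2.12) passed. Without peaks within 1 kb of input border pairs a TSS within 1 kb (1.44) and 5 kb (1.14), a neighbour within 1 kb (1.47) and 10 kb (1.42) and a GRE (0.921) did not pass and high GC (2.17) did. Without chromosome 8 a neighbour within 10 kb (1.44), MR after CORT (1.73) and a GRE (0.681) no longer passed. With the strongest peak of each run a TSS within 1 kb (1.39) and 5 kb (1.26), a neighbour within 1 kb (1.27) and 10 kb (1.05), MR after CORT (2.19) and a GRE (0.839) did not pass and high GC (1.78) did.

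Combinations with the vehicle sites left out were chosen after seeing the data. With 40 bands, a TSS within 1 kb (1.53) and 5 kb (1.19), a neighbour within 10 kb (1.44) and a GRE (0.913) did not pass, the GATA motif (1.01) changed direction and high GC (1.96) passed. With the washout summit within 50 bp a TSS within 1 kb (1.14) and 5 kb (1.12), MR after CORT (2.79) and a GRE (0.950) did not pass and high GC (2.67) did. With the strongest peak of each run a TSS within 1 kb (1.39) and 5 kb (1.22), a neighbour within 1 kb (1.36) and 10 kb (1.25) and an input border pair (4.49) did not pass, a GRE (1.00) changed direction and high GC (2.48) passed. Without chromosome 8 a TSS within 1 kb (1.64) and 5 kb (1.21) and a neighbour within 1 kb (1.40) and 10 kb (1.36) did not pass, lying over 5 kb from genes (1.02), a GRE (1.00) and the GATA motif (1.01) changed direction, and high GC (1.95) passed.

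The kept share of all GR CORT peaks moved to 1.26% with the washout summit within 50 bp, 1.55% without vehicle sites and 1.54% without peaks within 1 kb of input border pairs. In the strongest of the 5 bands it moved to 5.90% without vehicle sites. Genes with a kept peak numbered 320 when genes within 20 kb were counted. No paired analysis was possible because the replicates of each condition were combined by the authors, and none could be left out. The lists give no depth, and a lost peak is one not listed at the threshold of the washout library (lowest −log10 p 5.67).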
